A study of Mus musculus with 27 samples.

Results

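Hyaluronan, a long unbranched sugar polymer of the matrix around cells, is made by the synthases encoded by Has1, Has2 and Has3, cut by the hyaluronidases encoded by Hyal1 and Hyal2, and bound at the cell surface by the receptor Cd44. These 6 genes were taken by name from the 23295 genes of the parental RNA-seq table and the 24247 genes of the shRNA table, with the lamin B1 and ATAC peaks found around them. The cells were NMuMG, an epithelial line from the normal mouse mammary gland that undergoes the epithelial-to-mesenchymal transition (EMT) when given TGF-β. RNA-seq covered parental cells, cells infected with an irrelevant shRNA (control) and cells infected with a lamin B1 shRNA (KD). Each was sampled before TGF-β and after 8 h and 24 h of it, with 2 libraries per group and thus 6 parental and 12 shRNA libraries. Lamin B1 ChIP and ATAC gave 1 library per time point, from parental cells only, and each ChIP library mixed parallel ChIPs, so no peak value has a replicate error. The dose of TGF-β was between 1 and 5 ng/ml per the labels. All shRNA cells, the control cells included, had gone through infection, and the levels of control cells were compared with KD cells and not with parental cells.

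The synthases sit in the plasma membrane and extrude the growing chain to the outside, using sugar nucleotides that the cytosol supplies. Has2 is the synthase best known in mesenchymal cells and in EMT driven by TGF-β. Hyal2 cuts long chains at the cell surface, and Hyal1 degrades the fragments in lysosomes. Cd44 joins hyaluronan outside the cell to the actin skeleton through the proteins ezrin, radixin and moesin. Cemip and Tmem2 are further proteins that break hyaluronan down.

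Expression was deposited as FPKM, which is per transcript length, so that levels can be set beside each other across genes. Depth, estimated from the smallest FPKM steps, was 28.9 to 35.7 M reads per parental library and 44.5 to 63.2 M per shRNA library. The keratins Krt8 and Krt18 were above 1000 FPKM in every group, the epithelial adhesion gene Epcam had a group mean of at most 2.98 FPKM, and 4 immune markers together reached 1.03 to 1.97 FPKM. Lmnb1, which encodes lamin B1, had means of 32.9, 32.4 and 18.1 FPKM in control cells (untreated, 8 h and 24 h) and of 9.14, 7.96 and 5.94 FPKM in KD cells, lower at each time with adjusted p from 0.000189 to 0.000901 in limma's test. It was also lower at 24 h than in untreated control cells (adjusted p of 0.00317). The KD libraries of 24 h were the least alike of the replicate pairs of the shRNA table, with Pearson's r of 0.9596 for log2(FPKM + 1) over genes against 0.9707 to 0.9835 in the other pairs. For the 6 genes, differences between KD and control cells at 24 h are therefore given with and without a KD library where they were called. Such differences of other genes are given from the fit of all libraries only.

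All differences below are in log2(FPKM + 1) with the standard error (SE) of the limma fit, and p-values were adjusted over all genes tested by the Benjamini-Hochberg method. A gene was tested when at least 2 libraries of its table reached 1 FPKM, and called when its adjusted p was below 0.05. Of the 6 genes, 4 could be tested in parental cells and 5 in shRNA cells. Has1 was tested in neither and Has3 in the shRNA table only. Hyal1, Hyal2 and Cd44 were above 1 FPKM in every library, whereas Has2 and Has3 passed only through treated libraries, in which they are high, so their being called is no independent count. The added 1 FPKM makes the differences of low genes smaller than the ratio of their FPKM values. Where libraries of different groups are said below not to overlap, the share of all genes apart in the same way was not computed.

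**Figure D1:**
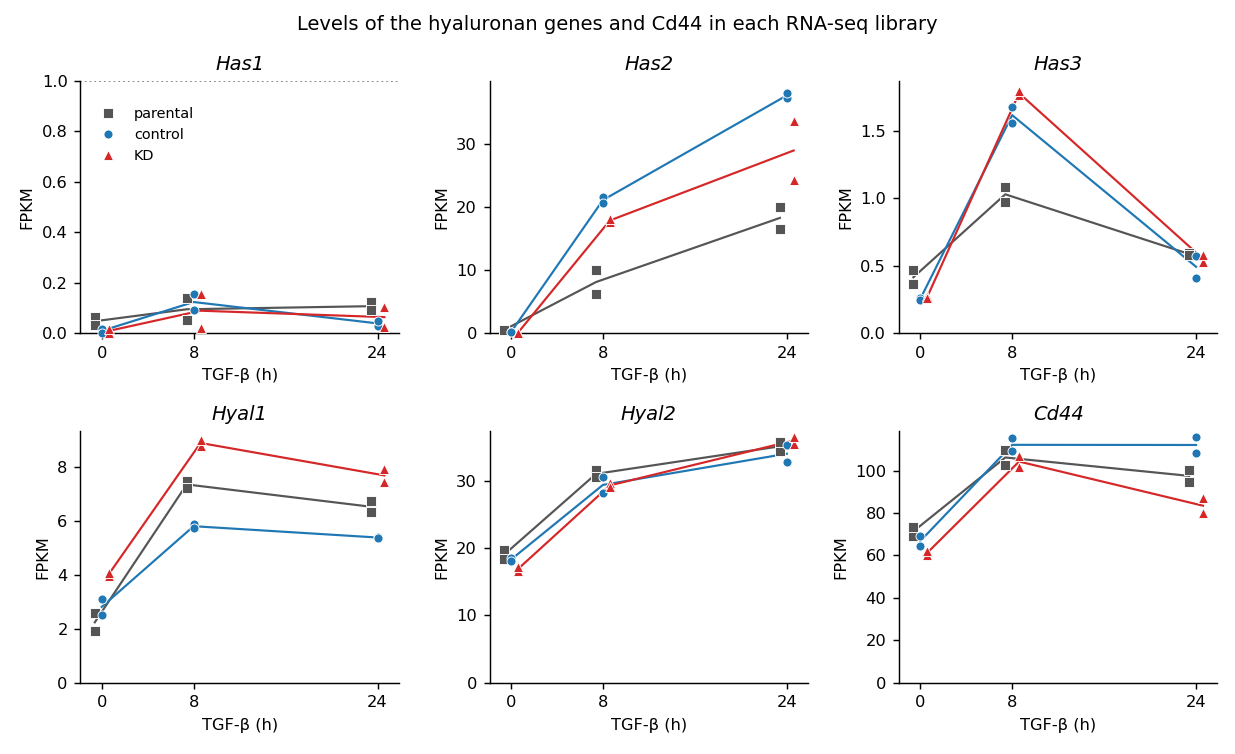
Level (FPKM) of each gene in every library against hours of TGF-β, for parental (squares), control (circles) and KD cells (triangles), with lines through the means of 2 libraries. Has1 reached at most 0.156 FPKM, Has2 rose at each time, Has3 was highest at 8 h, and KD lay above control for Hyal1 at all 3 times.

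Has2 went from the lowest of the tested genes in untreated shRNA cells to the highest of the synthases after TGF-β. In parental cells Has2 was 0.497 and 0.504 FPKM in the untreated libraries, 9.99 and 6.20 at 8 h and 20.0 and 16.5 at 24 h. In control cells it was 0.141 and 0.171 FPKM untreated, 21.6 and 20.6 at 8 h and 37.3 and 38.1 at 24 h. In KD cells it was 0.0228 and 0.0513 FPKM untreated, 17.6 and 18.1 at 8 h and 33.7 and 24.2 at 24 h. Each library is RNA from a whole culture, in which fewer cells of a kind and less RNA per cell cannot be told apart. No library of an earlier time overlapped with one of a later time in any of the 3 kinds of cells. The rise at 8 h was 2.57 (SE 0.19) in parental cells, with adjusted p of 7.99e-05, and 4.26 (SE 0.12) in control cells, with adjusted p of 2.37e-08. It was 4.18 (SE 0.12) in KD cells, with adjusted p of 2.13e-08. From 8 to 24 h Has2 rose further, by 1.11 in parental, 0.81 in control and 0.65 in KD cells. Among all genes tested, ordered by the size of their rise at 8 h, Has2 was number 18 of 11309 in parental and number 20 of 11450 in control cells.

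The untreated level of Has2 rested on few reads. It stood for about 65.1 and 66.1 reads in the parental, 33.6 and 42.4 in the control and 4.79 and 12.5 in the KD libraries, against 831 or more in every treated library. The parental and shRNA tables were set up separately, so the lower untreated level of the shRNA libraries was not tested.

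Has2os, the long RNA transcribed antisense from the Has2 locus, was also higher after TGF-β, with adjusted p from 2.39e-07 to 0.000337 for 8 or 24 h against untreated cells. Its change from 8 to 24 h passed the test in none of the 3 kinds of cells (adjusted p from 0.174 to 0.418). It was listed at 0 in both untreated parental libraries, and had a mean of 1.51 FPKM at 8 h and 1.96 at 24 h. In control cells its means were 0.0299, 2.69 and 3.06 FPKM, and in KD cells 0.0607, 2.83 and 3.12. Its exons overlap those of Has2 on the other strand, the study displays RNA profiles by strand, and the sources used here do not say whether strand entered the FPKM calculation, so the assignment of the reads of the pair is uncertain.

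Has3, which encodes a synthase of shorter chains, rose at 8 h and was lower again at 24 h. In control cells Has3 was 0.259 and 0.246 FPKM untreated, 1.67 and 1.55 at 8 h and 0.572 and 0.410 at 24 h. In KD cells it was 0.274 and 0.257 FPKM untreated, 1.76 and 1.79 at 8 h and 0.523 and 0.577 at 24 h. The libraries of 8 h lay above all others in both kinds of cells. The change from 8 to 24 h was -0.81 (SE 0.07, adjusted p of 2.17e-05) in control cells and -0.84 (SE 0.07, adjusted p of 1.68e-05) in KD cells. At 24 h Has3 was still 0.25 (adjusted p of 0.00817) above untreated control cells, a call that was lost without control replicate 1 at 24 h (0.17, adjusted p of 0.0758). In parental cells Has3 had means of 0.413, 1.03 and 0.585 FPKM and was not tested.

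Has1 was close to 0 in all 18 libraries, with 0 to 0.156 FPKM and about 0 to 20.3 reads per library. Its highest values were at 8 h in control replicate 1 and KD replicate 1. No fold is given for it, since the untreated shRNA libraries held about 2.04 reads at most. At 24 h the synthases in control cells were therefore ordered Has2 (37.7 FPKM), Has3 (0.491) and Has1 (0.0385), and no library of one overlapped with a library of the next. In untreated control cells the order was Has3 (0.253 FPKM), Has2 (0.156) and Has1 (0.00865), again with no overlap. The Has2 level there rested on the few reads given above. In untreated parental cells both Has2 libraries instead lay above the mean of Has3.

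Both hyaluronidases rose with TGF-β. Hyal1 was 2.57 and 1.91 FPKM in untreated parental cells, 7.48 and 7.20 at 8 h and 6.32 and 6.71 at 24 h, a rise of 1.37 (SE 0.10) and 1.22 (SE 0.10) over untreated cells with adjusted p of 7.72e-05 and 3.48e-05. In control cells Hyal1 was 3.12 and 2.50 FPKM untreated, 5.86 and 5.73 at 8 h and 5.40 and 5.34 at 24 h. In KD cells it was 3.94 and 4.08 FPKM untreated, 8.77 and 8.97 at 8 h and 7.44 and 7.90 at 24 h. Treated and untreated libraries did not overlap in any kind of cell, and the value of 24 h lay between the others. The change of Hyal1 from 8 to 24 h did not pass the test in parental (-0.15, adjusted p of 0.239), control (-0.09, adjusted p of 0.331) or KD cells (-0.19, adjusted p of 0.0593), and it passed in KD cells after quantile normalization (-0.20, adjusted p of 0.0211).

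Hyal2 was the more abundant hyaluronidase in every library and rose at each step. In parental cells Hyal2 was 19.7 and 18.3 FPKM untreated, 31.5 and 30.5 at 8 h and 34.4 and 35.8 at 24 h. In control cells it was 18.5 and 18.0 FPKM, then 28.2 and 30.6, then 32.7 and 35.3. In KD cells it was 16.5 and 17.2 FPKM, then 29.6 and 29.0, then 35.5 and 36.4. The rise at 24 h over untreated cells was 0.85 (SE 0.05) in parental, 0.86 (SE 0.05) in control and 1.05 (SE 0.05) in KD cells, with adjusted p from 2.35e-07 to 8.06e-06. The step from 8 to 24 h was smaller, 0.17 in parental and 0.20 in control cells (adjusted p of 0.0243 and 0.0110). It was lost in parental cells when either 24 h library or 1 of the 8 h libraries was left out (adjusted p of 0.0603 to 0.141), and in control cells without replicate 1 at 8 h or replicate 2 at 24 h (adjusted p of 0.0886 and 0.0939).

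Cd44 had the highest level of the 6 genes in all libraries. In parental cells Cd44 was 69.1 and 73.6 FPKM untreated, 109.6 and 103 at 8 h and 100.5 and 94.5 at 24 h. In control cells it was 69.0 and 64.6 FPKM untreated, 115 and 109 at 8 h and 116 and 108 at 24 h. In KD cells it was 60.2 and 62.2 FPKM untreated, 102 and 107 at 8 h and 87.0 and 79.8 at 24 h. In all 3 kinds of cells every treated library lay above every untreated one. In parental and in KD cells both 24 h libraries lay below both of 8 h. The rise at 8 h was 0.57 (SE 0.05) in parental, 0.74 (SE 0.06) in control and 0.76 (SE 0.06) in KD cells, with adjusted p from 5.86e-06 to 0.000204. From 8 to 24 h Cd44 fell by 0.32 (SE 0.06, adjusted p of 0.00221) in KD cells, whereas the change was -0.00 (SE 0.06, adjusted p of 0.989) in control and -0.12 (SE 0.05, adjusted p of 0.0959) in parental cells. Whether this change differed between KD and control cells is tested below, and the difference was not called. The values are per gene, so the splice forms of Cd44 were not resolved.

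Read against all genes, 4 of 4 tested in parental cells were higher at 8 h and at 24 h, where 22.4% and 33.4% of 11309 genes were higher. In control cells 5 of 5 were higher at 8 h and at 24 h, where 19.4% and 25.5% of 11450 genes were higher, and in KD cells 5 of 5 were called at either time, all higher, beside 67.8% and 71.9% of genes called. Hyal1, Hyal2 and Cd44, which did not depend on the filter, account for 3 of these in each case. From 8 to 24 h, 2 of 4 genes were called in parental cells (Has2 and Hyal2, both higher) beside 51.8% of all genes, and both calls were lost with no filter (adjusted p of 0.0636 and 0.0964). In control cells 3 of 5 were called beside 49.7%, Has2 and Hyal2 higher and Has3 lower. In KD cells 4 of 5 were called beside 51.8%, with Cd44 also lower. The median difference of all genes was -0.14 in control cells at 8 h and -0.13 at 24 h, and -0.02 and -0.00 after quantile normalization. The calls in control cells at 8 h changed from 2223 higher and 5137 lower to 3082 higher and 3624 lower, and those of these 5 genes remained. The 10 most abundant genes took 11.4% to 16.9% of the summed FPKM in untreated shRNA libraries and 17.9% to 40.4% in treated ones, and their part in the differences was not tested.

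**Figure D2:**
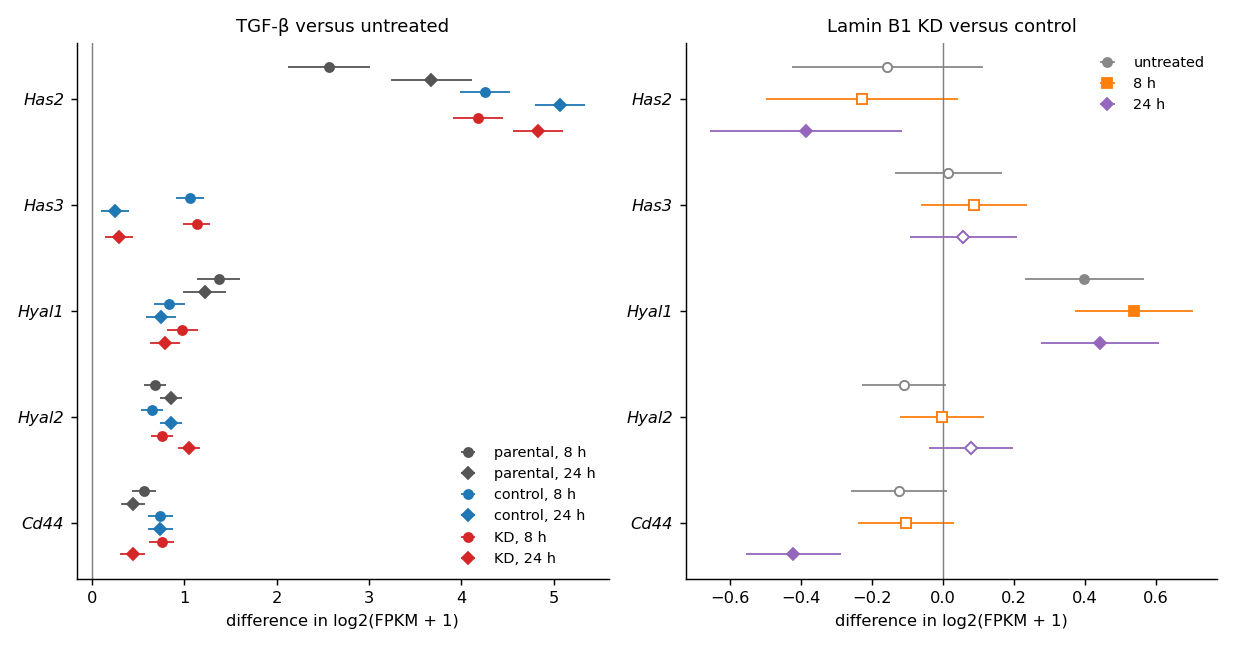
Differences in log2(FPKM + 1) with 95% confidence intervals from limma, for TGF-β against untreated cells (left) and KD against control cells (right), with filled symbols for adjusted p below 0.05. Has2 had the largest rises on the left, from 2.57 to 5.07, and on the right Hyal1 was above 0 at all times while Has2 and Cd44 were called only at 24 h.

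Hyal1 was higher in KD than in control cells at every time point and Cd44 was lower at 24 h. Has2 was also called lower at 24 h, but this call was lost when any of 3 single libraries was left out. Hyal1 was the only one of the 5 tested genes called in untreated cells, beside 19.7% of all genes, and the only one at 8 h, beside 35.8%. At 24 h 3 of 5 were called, beside 28.3%. The difference for Hyal1 was 0.40 (SE 0.07, adjusted p of 0.00759) untreated, 0.54 (SE 0.07, adjusted p of 0.000928) at 8 h and 0.44 (SE 0.07, adjusted p of 0.00357) at 24 h. The KD mean was 1.43, 1.53 and 1.43 times the control mean, and both KD libraries lay above both control libraries at each time. The untreated call was lost when KD replicate 2 was left out (adjusted p of 0.0607) and in a fit of these 2 groups alone (adjusted p of 0.0676). Without KD replicate 1 or 2 the difference at 24 h was 0.48 or 0.41 (adjusted p of 0.00417 and 0.0131).

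Exons of Hyal1 overlap those of Nat6 and Hyal3 in the annotation, and the assignment of shared reads is therefore uncertain. Nat6, an acetyltransferase gene, was likewise higher in KD cells at 8 h (0.50, adjusted p of 0.00170) and at 24 h (0.41, adjusted p of 0.00584), and differed by -0.04 (adjusted p of 0.794) in untreated cells. Hyal3 was at or below 0.357 FPKM in every library and was not tested.

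Cd44 differed by -0.42 (SE 0.06, adjusted p of 0.00172) between KD and control cells at 24 h, where the KD mean was 0.745 times the control mean. Without KD replicate 1 or 2 it was -0.48 or -0.36 (adjusted p of 0.00100 and 0.00589). Untreated and 8 h cells differed by -0.12 (adjusted p of 0.182) and -0.10 (adjusted p of 0.205), with 95% intervals of -0.26 to 0.01 and -0.24 to 0.03. In those groups too both KD libraries lay below both control libraries, though neither difference was called. Whether the response to TGF-β itself differed was tested by the interaction of KD and treatment, in which none of the 5 genes was called at 8 h, beside 4.06% of all genes, or at 24 h, beside 4.72%. At an unadjusted p under 0.05, 0 of the 5 passed at 8 h and 2 at 24 h, Cd44 and Hyal2. The 4.06% and 4.72% are at adjusted p. The share of all genes at the unadjusted threshold was not computed, here or for the change from 8 to 24 h below. These unadjusted counts thus have no share of all genes to be read against. For Cd44 at 24 h the interaction was -0.30 (SE 0.08, adjusted p of 0.0819), and it was -0.36 (adjusted p of 0.0182) without KD replicate 1 at 24 h, when the genes called rose from 540 of 11450 to 2696 of 11419. For Hyal2 it was 0.19 (SE 0.07, adjusted p of 0.168). A test of the change from 8 to 24 h, chosen after these values were seen, gave -0.32 for Cd44 (SE 0.08, adjusted p of 0.212) and no call for the 5 genes, beside 0.306% of all genes, with 1 of the 5 at an unadjusted p under 0.05. Without KD replicate 1 at 24 h it was -0.38 for Cd44 and -0.39 for Has2 (adjusted p of 0.0174 and 0.00783), with 2138 genes of 11419 called in place of 35 of 11450.

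Has2 was called lower in KD cells at 24 h, by a call that did not hold when single libraries were left out. The difference was -0.39 (SE 0.12, adjusted p of 0.0404), and the KD replicates themselves differed, at 33.7 and 24.2 FPKM. Without KD replicate 2 the difference was -0.16 (adjusted p of 0.0586), without KD replicate 1 it was -0.62 (adjusted p of 0.000152), and without control replicate 1 or 2 at 24 h it was -0.40 or -0.37 (adjusted p of 0.139 and 0.154). The call was also lost with an added 0.1 in place of 1 (adjusted p of 0.0776), with no filter (0.124) and in a fit of these 2 groups alone (0.196). At 8 h Has2 differed by -0.23 (adjusted p of 0.168, 95% interval -0.50 to 0.04). In a limma fit of the 8 h groups alone it was called lower (adjusted p of 0.0048). In untreated cells it differed by -0.16 (adjusted p of 0.396), and by -0.91 (adjusted p of 0.00518) with an added 0.1, on the few reads given above. The interaction for Has2 at 24 h was -0.23 (SE 0.17, adjusted p of 0.437), and -0.46 (adjusted p of 0.00372) without KD replicate 1, in the same fit that called 2696 genes.

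No difference between KD and control cells passed the test for Has3 or Hyal2. For Has3 the 95% intervals were -0.14 to 0.17 untreated, -0.06 to 0.24 at 8 h and -0.09 to 0.21 at 24 h. For Hyal2 they were -0.23 to 0.01, -0.12 to 0.12 and -0.04 to 0.20. Has2os differed by 0.04, 0.06 and 0.02 at the 3 times, with adjusted p from 0.681 to 0.911.

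The peak lists show where lamin B1 and open chromatin were found around these genes on mm9. A gene was counted with a peak that overlapped, by at least 1 bp, the span from 2500 bp upstream of its transcription start site (TSS) to its 3′ end. The score is that of MACS, the program named in the peak names, and the lists differ in length, from 4645 to 10484 lamin B1 peaks and from 9782 (0 h) and 10340 (8 h) to 33811 (24 h) ATAC peaks. The percentile of a score within its own list is therefore given beside it.

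A lamin B1 peak was found at 4 of the 6 genes in untreated cells (Has1, Has2, Has3 and Hyal2), where 19.9% of 20994 genes had one. The same 4 had one at 8 h, beside 38.8%, and Has1, Has3 and Hyal2 at 24 h, beside 29.4%. Hyal1 and Cd44 had none at any time, and no lamin B1 peak lay within 100 kb of the Cd44 start. An ATAC peak was found at 5 of the 6 genes at all 3 times, beside 37.0%, 32.9% and 60.0% of all genes, and Has3 was the one without.

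**Figure D3:**
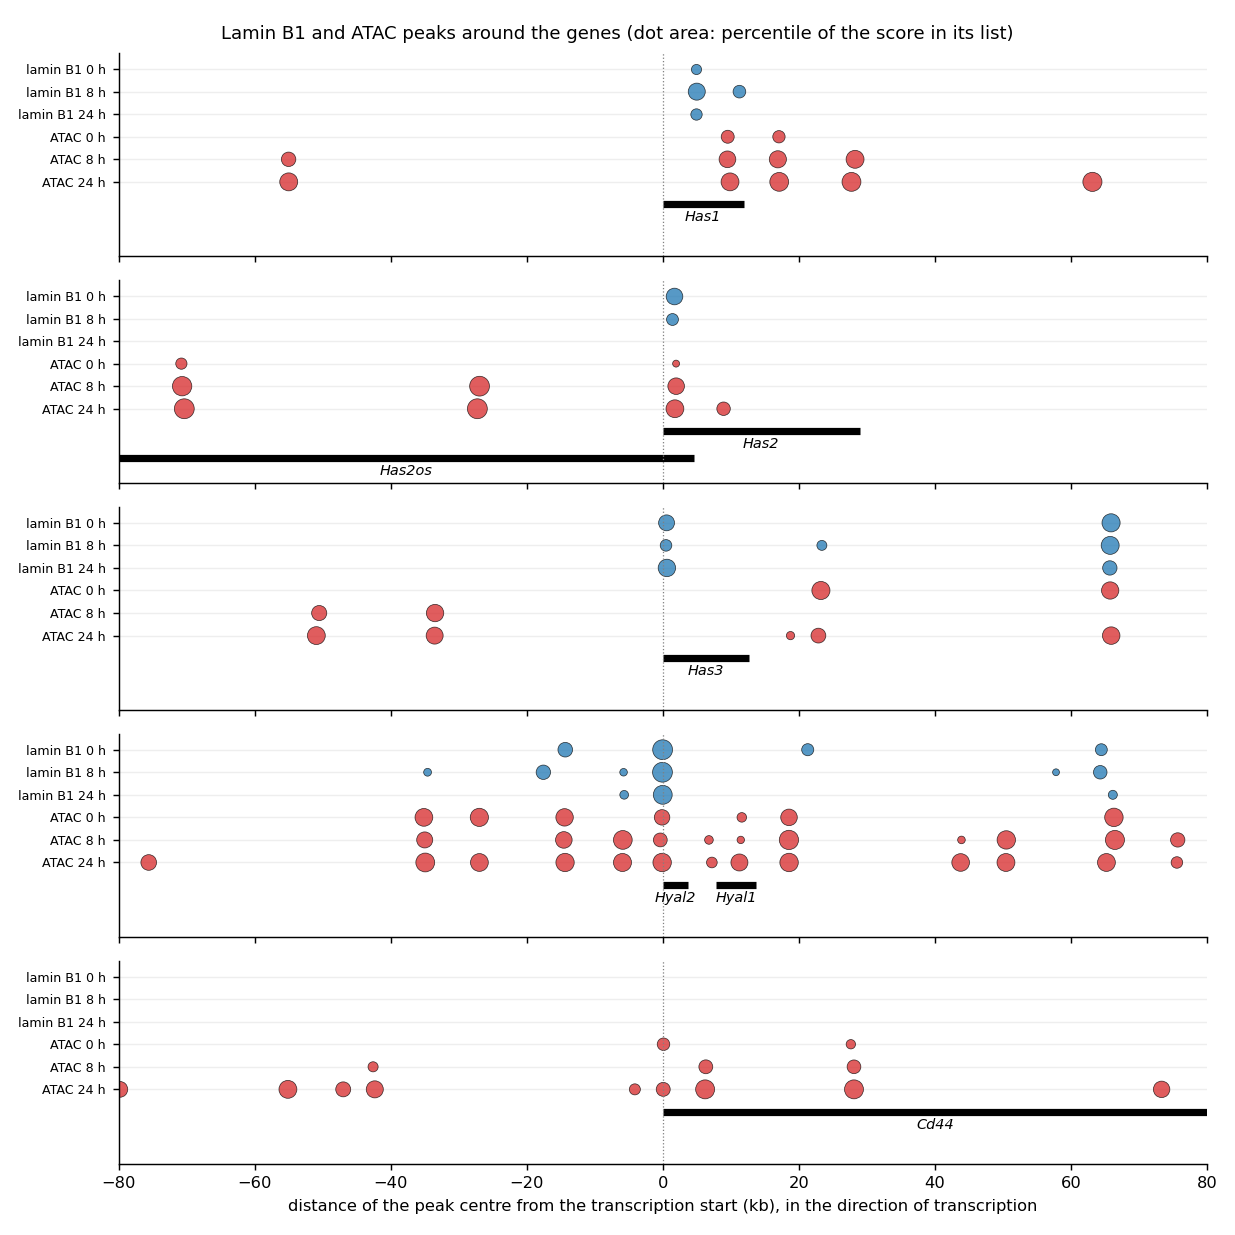
Peaks of lamin B1 (blue) and ATAC (red) at each time, by the distance of their centre from the TSS in kb along the direction of transcription, with the gene spans as black bars and dot area by percentile of score. Hyal2 had lamin B1 at its start at all 3 times, Has2 had no lamin B1 peak in the 24 h list, and ATAC sites 27.3 and 70.3 kb upstream of Has2 had the largest dots at 24 h.

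Has2 lies on the minus strand of chromosome 15 (chr15:56497182-56526094). Its lamin B1 peak was centred 1.61 kb inside the gene in untreated cells, with a score of 82.0 at percentile 66.3. At 8 h it was 1.4 kb inside, with a score of 64.35 at percentile 28.6, and at 24 h the list had none there or anywhere within 100 kb of the start. An ATAC peak overlapped the same stretch of the gene at all 3 times, at scores of 51.7, 85.6 and 305 and percentiles 2.59, 65.9 and 77.7. No peak of either kind covered the TSS itself.

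The strongest ATAC signal near Has2 lay upstream, within the span of Has2os. A site centred 27.3 kb upstream at 24 h, in an intron of Has2os, had no peak in untreated cells, a score of 168 at percentile 98.4 at 8 h and 777 at percentile 99.4 at 24 h. A site 70.3 kb upstream, which overlaps an exon of Has2os, was listed at 66.6 (percentile 24.5), 133 (percentile 93.7) and 747 (percentile 99.3). Within 100 kb of its start Has2 had 2, 3 and 4 ATAC peaks, where the median gene had 1, 1 and 4.

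The 300 bases at the centre of these upstream peaks (24 h list, mm9, plus strand) are shown, since they hold the signal that was absent or low in untreated cells. Capitals mark matches, on either strand, to TGANTCA (bound by AP-1 factors), GGAATG (TEAD), CAGAC (SMAD) and CACCTG (bound by Snail and Zeb factors). The first is chr15:56553200-56553499 and the second chr15:56596284-56596583.
Has2 distal element A: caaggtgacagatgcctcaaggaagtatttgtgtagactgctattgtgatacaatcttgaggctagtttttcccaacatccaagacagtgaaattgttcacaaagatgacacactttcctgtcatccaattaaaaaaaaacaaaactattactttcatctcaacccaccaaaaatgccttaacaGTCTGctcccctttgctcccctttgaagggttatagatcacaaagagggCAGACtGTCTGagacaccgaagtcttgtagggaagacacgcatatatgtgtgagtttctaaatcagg
Has2 distal element B: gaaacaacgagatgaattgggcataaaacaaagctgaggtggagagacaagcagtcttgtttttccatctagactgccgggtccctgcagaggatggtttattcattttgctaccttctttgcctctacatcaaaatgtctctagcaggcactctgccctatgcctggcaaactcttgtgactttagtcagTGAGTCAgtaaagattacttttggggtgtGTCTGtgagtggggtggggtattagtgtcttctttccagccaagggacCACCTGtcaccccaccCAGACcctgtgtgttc

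Element A held 3 matches to CAGAC and none to the other motifs. Element B held 2 to CAGAC, 1 to TGANTCA and 1 to CACCTG. Of 33807 windows of the same length at the centres of all 24 h ATAC peaks, 56.2% held CAGAC, 7.08% held it 3 times or more, 41.2% held TGANTCA, 19.0% held GGAATG and 16.4% held CACCTG. A match is a description of the letters, and binding was not measured.

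Cd44 (chr2:102651298-102741822, minus strand) had an ATAC peak over its start in untreated cells (score 73.8, percentile 32.9) and at 24 h (134, percentile 43.7), and none there at 8 h, when its RNA was near its highest. A peak in its intron had no counterpart in untreated cells, was centred 6.32 kb from the start at 8 h (69.5, percentile 42.8) and 6.22 kb at 24 h (424, percentile 89.5). A further intronic peak, 27.6 to 28.1 kb from the start, was listed at all 3 times, at scores of 58.9, 68.8 and 421 and percentiles 13.6, 41.7 and 89.3. The centre of the intronic peak first listed at 8 h (24 h list, chr2:102735458-102735757, mm9, plus strand) is shown with the same capitals.
Cd44 intronic element: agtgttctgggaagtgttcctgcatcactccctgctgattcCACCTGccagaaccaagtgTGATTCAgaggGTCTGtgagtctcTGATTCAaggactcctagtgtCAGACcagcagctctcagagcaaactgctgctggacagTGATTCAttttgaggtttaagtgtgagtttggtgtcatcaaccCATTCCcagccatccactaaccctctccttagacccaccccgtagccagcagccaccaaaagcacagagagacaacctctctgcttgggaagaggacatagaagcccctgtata

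This stretch held TGANTCA 3 times, which 1.38% of the 24 h ATAC windows did, and CAGAC 2 times. It also held 1 match each to GGAATG and CACCTG.

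Hyal2 (chr9:107471448-107475107) and Hyal1 (chr9:107479258-107485174) lie next to each other on the plus strand, and the peaks of lamin B1 were at Hyal2 alone. The lamin B1 peak at the Hyal2 start scored 239.6, 299.5 and 165 at the 3 times, at percentiles 98.9, 98.55 and 88.6. It was the highest ranked lamin B1 peak within these 6 genes at each of the 3 times. An ATAC peak covered the Hyal2 start at all 3 times, at scores of 101, 69.3 and 361 and percentiles 56.0, 42.5 and 83.9. At Hyal1 an ATAC peak reached the start at 24 h (78.9, percentile 21.1), and at 8 h the nearest one (54.2, percentile 10.1) was centred 1.03 kb upstream. A peak 3.45 to 3.80 kb inside Hyal1, over the start of Hyal3, was listed at all times at scores of 59.7, 51.9 and 252 and percentiles 14.7, 4.49 and 69.9. The region is dense in genes, with 7, 11 and 13 ATAC peaks within 100 kb of the Hyal2 start, where 3.14%, 0.0476% and 2.40% of genes had as many or more.

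The RefSeq promoters of Hyal2, Hyal1 and Cd44 (GRCm38.p6, 250 bases before to 50 after the start, on the strand of the gene) are shown because only the first of them carried lamin B1. Capitals mark the same motifs. They lie at chr9:107568913-107569212, chr9:107576700-107576999 and chr2:102901616-102901915.
Hyal2 promoter: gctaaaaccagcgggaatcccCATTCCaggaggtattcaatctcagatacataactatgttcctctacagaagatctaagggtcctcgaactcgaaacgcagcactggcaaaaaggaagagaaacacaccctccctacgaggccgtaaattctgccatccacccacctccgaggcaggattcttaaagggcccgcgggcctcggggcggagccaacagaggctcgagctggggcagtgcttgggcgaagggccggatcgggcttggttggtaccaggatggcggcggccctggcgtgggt
Hyal1 promoter: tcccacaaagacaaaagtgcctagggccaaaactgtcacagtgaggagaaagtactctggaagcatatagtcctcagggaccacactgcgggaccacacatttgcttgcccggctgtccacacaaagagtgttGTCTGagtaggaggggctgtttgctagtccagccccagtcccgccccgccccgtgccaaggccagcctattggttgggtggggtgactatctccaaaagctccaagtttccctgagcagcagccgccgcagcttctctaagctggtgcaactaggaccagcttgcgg
Cd44 promoter: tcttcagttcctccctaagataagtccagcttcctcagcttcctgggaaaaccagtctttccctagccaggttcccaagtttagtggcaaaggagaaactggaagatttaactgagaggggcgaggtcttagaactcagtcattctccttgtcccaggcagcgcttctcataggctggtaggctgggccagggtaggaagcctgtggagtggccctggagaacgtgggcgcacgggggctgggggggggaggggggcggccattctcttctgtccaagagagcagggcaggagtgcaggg

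The Hyal2 promoter held 18 CpG dinucleotides, that of Hyal1 8 and that of Cd44 6, where the median of 32841 RefSeq promoters was 7. Their GC content was 58.3%, 57.0% and 58.0%, above the median of 52.7%. The Hyal2 promoter held 1 match to GGAATG, as 14.7% of promoters did, the Hyal1 promoter 1 match to CAGAC, as 49.6% did, and the Cd44 promoter none to these motifs.

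Has3 (chr8:109394142-109406802, plus strand) had a lamin B1 peak at its start at all 3 times, with centres 0.55, 0.47 and 0.60 kb inside the gene. Its scores were 76.3, 63.1 and 118 at percentiles 59.7, 26.6 and 74.0. No ATAC peak fell between 2500 bp upstream of the gene and its end, also at 8 h when its RNA was highest, and the nearest one at 24 h was centred 18.8 kb downstream of the start. Has1 (chr17:17980292-17992152, minus strand), which had almost no RNA, carried a lamin B1 peak over an exon at all 3 times (scores of 55.1, 104 and 62.4, percentiles 18.1, 70.1 and 25.3). It also had an ATAC peak inside the gene, at scores of 77.2, 86.6 and 312 and percentiles 36.2, 67.0 and 78.5. The presence of a lamin B1 peak thus did not order the 6 genes by level, with Has1 at the low end and Cd44, without a peak, at the high end.

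Other genes of the pathway were read from a list of 54 further genes written by role, of which 32 were tested in parental and 33 in shRNA cells. In control cells at 8 h 15 of 33 were higher, 13 lower and 5 not called. Of all genes 19.4% were higher and 44.9% lower. At 24 h 16 of the list were higher, 13 lower and 4 not called, beside 25.5% of all genes higher and 45.1% lower. Parental cells had 13 of 32 higher and 13 lower at 8 h, beside 22.4% and 32.1% of all genes. At 24 h they had 19 and 11, beside 33.4% and 37.1%. Of the listed genes, 6 in shRNA cells (Gfpt2, Hapln4, Has2os, Mmp9, Stab1 and Tnfaip6) and 5 in parental cells (the same without Gfpt2) were under 1 FPKM in every untreated library, whereas 0 were so in every treated library. They were tested only because treated libraries reached 1 FPKM, so the counts of higher genes are no support for a rise of the list.

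Among the genes that supply sugar nucleotides, Ugdh, which makes UDP-glucuronic acid, rose from 232 to 571 FPKM in control cells at 8 h and was 303 at 24 h. Uap1, which makes UDP-N-acetylglucosamine, rose from 16.3 to 37.1 and 41.2 FPKM. Pgm3, of the same route, rose by 0.47 and 0.77, and Gfpt2, an enzyme that starts it, by 0.36 and 1.08 from a mean of 0.00857 FPKM. In all, 4 of 8 genes of precursor supply were higher and 3 lower at 8 h in control cells. Of all genes 19.4% were higher and 44.9% lower there.

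Of the proteins that bind hyaluronan in the matrix, Tnfaip6, which moves heavy chains onto the polymer, rose from 0.0920 to 10.4 FPKM in control cells at 8 h and to 15.0 at 24 h. Versican (Vcan) rose by 0.60 and 0.64. Itih2, which encodes such a heavy chain, was lower, with differences of -2.52 and -2.69 from a mean of 5.67 FPKM, as was Habp2, with -2.69 and -3.66. Of 17 listed genes of this role 5 were tested, with 2 higher and 2 lower at either time. Of all genes, 19.4% and 25.5% were higher and 44.9% and 45.1% lower at 8 h and 24 h.

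Among the receptors Hmmr, which is also a gene of dividing cells, was lower in control cells, with differences of -0.50 at 8 h and -2.25 at 24 h, and Stab1 rose by 0.96 and 1.97. The Toll-like receptor genes moved apart, Tlr2 higher by 0.32 and 0.71 and Tlr4 lower, with differences of -0.90 and -0.77. Lyve1, Layn and Stab2 did not reach 1 FPKM in any group. Of the partners of Cd44, moesin (Msn) rose from 232 to 509 and 696 FPKM and ezrin (Ezr) fell from 295 to 79.0 and 56.9 FPKM in control cells. Mmp9, a protease gene whose product can dock on Cd44, rose by 0.37 and 1.92, and Spp1, which encodes the Cd44 ligand osteopontin, was lower, with -1.18 and -1.52. Among the other genes of breakdown, Cemip rose by 0.44 and 1.86 and Tmem2 by 0.71 and 0.38, while Hexa, which encodes a subunit of a lysosomal enzyme that trims sugar chains, was lower at 8 h, with -1.22. Esrp2, a regulator of epithelial splicing including that of Cd44, fell by 0.47 at 24 h, and Esrp1 had a mean of at most 0.281 FPKM in every group.

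**Figure D4:**
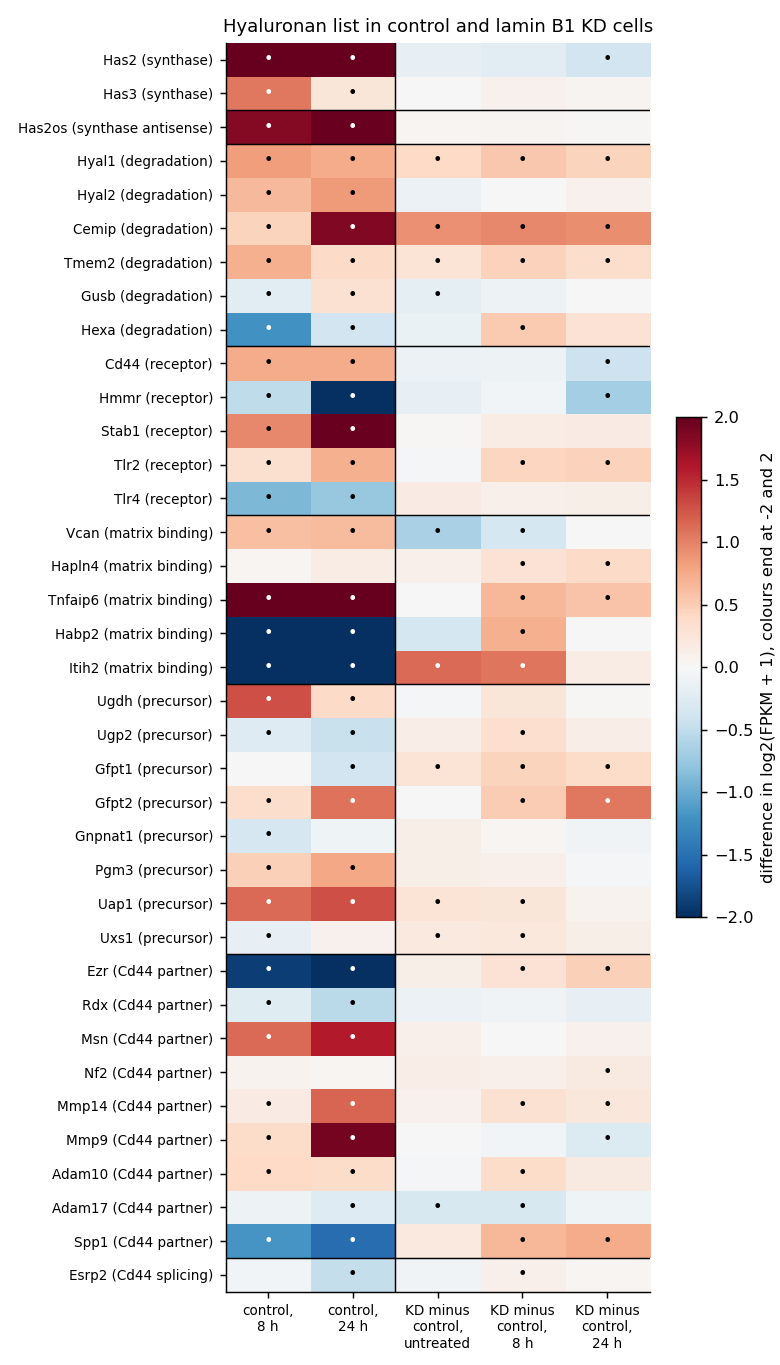
Differences in log2(FPKM + 1) for tested genes of the list, by role, in control cells treated with TGF-β (2 columns on the left) and between KD and control cells (3 columns on the right), with dots for adjusted p below 0.05. In KD cells at 8 h 18 of the 33 genes besides the 5 named above were higher and 2 lower. Of all genes 19.3% were higher and 16.5% lower.

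Between KD and control cells, 6 of the 33 other genes were higher and 3 lower in untreated cells. At 8 h 18 were higher and 2 lower, and 11 and 2 at 24 h. Their median was 0.06, 0.24 and 0.13, beside -0.01, 0.01 and 0.02 for all genes, of which 10.6%, 19.3% and 16.8% were higher. The shares of all genes that were lower were 9.09%, 16.5% and 11.5%. Cemip was higher in KD cells at each time, by 0.91, 0.96 and 0.93 (SE 0.07 each, adjusted p from 6.14e-05 to 0.000104), as was Tmem2, by 0.27, 0.47 and 0.36 (adjusted p from 0.000558 to 0.0142). Mean Cemip was 0.738, 1.36 and 5.30 FPKM in control and 2.27, 3.61 and 10.98 FPKM in KD cells. Of the 5 tested genes of breakdown other than the hyaluronidases above, 2 were higher and 1 lower untreated, 3 higher at 8 h and 2 higher at 24 h, while Hyal2 was called at no time. Hmmr was lower at 24 h, with a difference of -0.68 (SE 0.13, adjusted p of 0.00709), and Vcan was lower untreated and at 8 h. Gfpt2 was higher by 0.51 at 8 h and 1.05 at 24 h, Tnfaip6 by 0.66 and 0.58, and Spp1 by 0.66 and 0.75. Cdh1, the epithelial cadherin, was higher in KD cells at 8 h (0.68, adjusted p of 0.00173) and 24 h (0.94, adjusted p of 0.000656). Cldn4, another epithelial marker, went the other way, with a KD mean of 0.533 times the control mean at 8 h and 0.773 times at 24 h. The summed level of the 6 epithelial markers at 24 h was 5778 to 6023 FPKM in control and 6134 to 7009 FPKM in KD cells, that of the 5 mesenchymal markers was 2015 to 2054 and 1857 to 2408 FPKM, and their part in the values of Cd44 and Has2 was not tested.

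The genes most like each member in pattern were found by Pearson's r of log2(FPKM + 1) over the 6 parental and over the 12 shRNA libraries, taking the lower of the values, among 10845 genes. For Has2 these were Sdc3 (0.998 and 0.997), Itga5 (0.996 and 0.998) and Lce1f (0.995 and 0.996). Sdc3, a cell surface proteoglycan, had 7.27, 81.0 and 124 FPKM in control cells. For Hyal1 they were Vdr (0.985 and 0.986), Ppapdc1b and Lpcat4. Vdr, the vitamin D receptor, was higher in KD cells at all times (0.51, 0.73 and 0.79). It was chosen for its likeness to Hyal1 over these same libraries, so this is no separate result. For Hyal2 they were Rab11fip5 (0.994 and 0.992), Ctsw and Sh3bp2, and for Cd44 Fhod1 (0.987 and 0.975), Klhl21 and Efnb1. These values describe libraries that share treatments, and neither Has1 nor Has3 was tested in both tables.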

How the data were processed

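Gene expression was deposited as FPKM tables without a header, made by the authors per library, and columns were matched to samples by the deposited descriptions. The submitters' processing notes name Bowtie, TopHat and Cufflinks and the mm9 build, and the counting of strand is not given in the sources used here. Peaks were deposited with a MACS score, lowest value 50, called by the authors on 1 library per time point. Of 23295 and 24247 symbols, 20994 and 20644 matched the mm9 gene annotation (GENCODE M1), and shares of genes with a peak are over 20994 genes.

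Differences were tested with limma 3.58.1 (R 4.3.3) on log2(FPKM + 1), with trend, 1 fit per table over all its groups, two-sided, with Benjamini-Hochberg adjustment over the genes that 2 or more of its libraries held at 1 FPKM or above. The steps were tested on simulated data. The methods of the study speak of biological replicates, with 2 libraries per group. The p-values rest on the spread between libraries within groups, pooled over all groups of a table and drawn toward a trend over genes. They do not measure the spread of a single group alone. Depth was estimated from the smallest FPKM steps, with 72.0% to 76.9% of low values within 0.1 of a whole read, so no count test was run. The 6 genes and all lists were chosen with earlier results of these data known. Genes named with values were the 6 members, Lmnb1, neighbours that overlap them, up to 4 genes per role of the pathway list with the largest called changes, the 3 genes most alike per member, and cell type markers. Alternatives were an added 0.1, no filter, quantile normalization, a fit restricted to both groups of a comparison and a minimum of 2-fold in FPKM + 1. Others were the replicate number as a block, leaving out each library, and other peak rules. Promoters came from RefSeq (GRCm38.p6), which are shown for Hyal1, Hyal2 and Cd44, and other sequences from mm9, read with samtools 1.23.1. Figures were drawn with matplotlib 3.10.9. Chromosome contact data were not analysed here. Values of 1 gene of the pathway list are not reported here, and it enters only the totals.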

Additional observations from a re-analysis of the deposited data

Results flagged for a closer look

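None of the 5 tested genes was called by the interaction test of limma, which asks whether the response to TGF-β differed between KD and control cells. Has1 was not tested, and a missed threshold does not show an equal response. Among the neighbours and the pathway list, 10 differences in response passed at adjusted p below 0.05. Gfpt2, an enzyme of hexosamine supply, rose more in KD cells, by 0.51 at 8 h (adjusted p of 0.0303) and 1.06 at 24 h (adjusted p of 0.00122). Tnfaip6 likewise rose more, by 0.67 at 8 h (adjusted p of 0.0181) and 0.59 at 24 h (adjusted p of 0.0206). Gfpt2 and Tnfaip6 were under 1 FPKM in every untreated shRNA library. They entered the test only through treated libraries, in which they are high, so their calls are no independent support. Spp1 fell less in KD cells, with differences of 0.47 at 8 h (adjusted p of 0.0397) and 0.56 at 24 h (adjusted p of 0.0226). Hexa fell less at 8 h, by 0.66 (adjusted p of 0.0482), and Vcan rose more at 24 h, by 0.655 (adjusted p of 0.0376). Itih2 had a difference of -0.98 at 24 h (adjusted p of 0.0234), from a higher untreated level in KD cells. Nat6, whose exons overlap Hyal1, rose more at 8 h, by 0.54 (adjusted p of 0.0363), while the interaction of Hyal1 was 0.14 (adjusted p of 0.493). These calls moved with single libraries. Over all genes, the interaction at 8 h called 465 genes, and 25 to 1486 when 1 library was left out, with the most without control replicate 2 of 0 h. At 24 h it called 540, and 85 to 2696 when 1 library was left out, with the most without KD replicate 1 of 24 h and 1415 without control replicate 2 of 0 h. With the replicate number as a block the counts were 284 and 377, and in fits of only the groups compared 724 and 86. The 10 differences were then computed under the same alternatives other than the 2-fold minimum, after they had been seen. That of Gfpt2 at 24 h was called under all 13 alternatives (adjusted p of 0.0169 at most), and that of Tnfaip6 at 24 h under 9 of 13. The other 8 were called under 3 to 7 of 12 or 13 alternatives, and each lost the call when some single library was left out. Their highest adjusted p was from 0.0946 to 0.880. Hexa, Nat6 and Spp1 at 8 h and Vcan at 24 h were not called with the block. No group of 2 libraries allows a check of a single outlying library.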

How the results depend on the processing

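Of 189 alternative values for the counts of genes called or with a peak, 156 were within 1.5 times the reported count and 33 were not. Of 762 for single genes, 709 kept their direction and side of the threshold, 46 lost and 7 gained a call, and 0 reversed. A minimum of 2-fold was set on FPKM + 1, which for low genes is stricter than 2-fold in FPKM. It left 2, 2 and 1 genes in parental cells (8 h, 24 h, 24 against 8 h). In control cells it left 2, 1 and 0, in KD cells 2, 2 and 0, and between KD and control 0 at each time. With no filter 1 gene was called in parental cells from 8 to 24 h, Has3 (-0.35, adjusted p of 0.0232), in place of Has2 and Hyal2. Between KD and control, untreated cells had 2 called with an added 0.1, beside 19.1% of all genes. They had 0 in a fit of those groups alone, beside 10.1%. A fit of the 8 h groups alone called 2, Hyal1 and Has2, beside 52.2%. Leaving out 1 library gave 1 to 2 genes in parental cells from 8 to 24 h, 4 to 5 in control cells at 24 h, 2 to 3 in control cells from 8 to 24 h, 0 to 1 between untreated KD and control cells, 2 to 3 at 24 h, and 0 to 2 for the interaction at 24 h and for the change from 8 to 24 h. These counts of leaving out 1 library are given without a share of all genes, and the causes were not tested. Lamin B1 peaks within 500 bp of the TSS were at 2 genes at 0 h and 2 at 8 h, and peaks at or above the median score, or in lists of equal length, at 2 at 8 h. ATAC peaks at or above the median score were at 1 gene at 0 h and 2 at 8 h, within 500 bp of the TSS at 2, 1 and 3 genes at the 3 times, and within 2500 bp at 3 at 0 h and 3 at 8 h. With the replicate number as a block in shRNA cells, all 12 counts and 60 gene values kept their call. Deviations of same-numbered libraries correlated at -0.135 to 0.368 over 15 pairs of groups, 2 of them over 0.1. The highest, 0.368, was between control and KD cells at 24 h, and the next, 0.184, between untreated and 24 h KD cells. Whether same-numbered libraries were prepared together was not tested. Quantile normalization moved the calls at 24 h in control cells from 2924 higher and 5169 lower to 3900 and 3901, and in KD cells from 2629 and 5132 to 3432 and 4036 at 8 h and from 3277 and 4959 to 4126 and 4103 at 24 h. Low reads limit Has1 and untreated Has2.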
